A study of Homo sapiens with 6 samples.

Results

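The nuclear-encoded genes of oxidative phosphorylation were followed in HEK293 cells after knockdown of MOV10. The members are the rows of the half-life table whose symbols belong to the NDUFA, NDUFB, NDUFC, NDUFS, NDUFV, SDH, UQCR, COX4 to COX8 and ATP5 families, with CYC1 and CYCS. They number 63 of the 7682 genes in the table, and all 63 are among the 6064 tested genes, whose total RNA averaged at least 5 in each of the conditions. By known position in the chain, 29 encode subunits of complex I, 2 of complex II, 5 of complex III, 9 of complex IV and 14 of complex V. The remaining 4 are CYCS (cytochrome c, the mobile carrier) and COX7A2L, ATP5S and ATP5SL, which share a family name but are an organising or assembly factor or of uncertain place in the enzyme. NDUFA4, named after complex I, is counted in complex IV, where it is now placed.

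Oxidative phosphorylation is carried out by 5 enzyme assemblies of the inner mitochondrial membrane. Complexes I and II feed electrons from NADH and succinate into ubiquinone, complex III passes them to cytochrome c, complex IV hands them to oxygen, and complex V, the ATP synthase, uses the resulting proton gradient to make ATP. Complexes I, III, IV and V also hold subunits made inside the mitochondrion, so they are built from the products of 2 genomes, while complex II is made from nuclear genes alone.

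The study used HEK293 cells, an embryonic kidney line, transfected with MOV10 siRNA or mock transfected. MOV10 is an RNA helicase that the series title places in the decay of UPF1 targets. Cells of both conditions were given 4-thiouridine (4sU) at 700 µM for 60 min, their RNA was split on streptavidin into a labelled fraction and an unlabelled flow-through, and poly(A)+ libraries of total, labelled and flow-through RNA were sequenced. The authors' expression values, in a unit that is not named, and the authors' half-lives come as 2 replicate columns per condition, and nothing in the sources used here says that these were separate cultures.

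MOV10 total RNA was 3.53 and 3.64 in the MOV10 siRNA columns, against 13.1 and 14.6 in the mock columns, a 3.86-fold lower level. Of 8 marker genes of HEK293 cells, 5 were among the rows analysed here and 2 passed the expression floor, and 0 of 14 markers of fibroblasts, leukocytes, endothelium and hepatocytes were among the rows. Half-lives ran higher in MOV10 siRNA replicate 2 across all genes, with a median of 1030 min, against 764 min in MOV10 siRNA replicate 1 and 742 and 810 min in mock. All changes below are log2 differences, MOV10 siRNA minus mock, relative to the median gene of each column, and expression changes are on the log2(value + 1) scale. Before that centring the median gene stood 0.20 higher in half-life and 0.14 higher in labelled RNA after MOV10 siRNA, and the shift was -0.01 in total RNA and 0.02 in flow-through RNA. The words rose and fell are used where limma's test over all 6064 genes gave a Benjamini-Hochberg adjusted p under 0.05. The p-values measure only the spread between these columns, and the depth of the libraries is unknown.

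The mRNAs of oxidative phosphorylation were long-lived in both conditions. Their median half-life was 1539 min after MOV10 siRNA and 1308 min in mock, while the median of all tested genes was 900 min after MOV10 siRNA and 777 min in mock. After MOV10 siRNA 54 of the 63 members lay above the all-gene median, and in mock 55 did. In mock, 37 members ranked above percentile 75 of all tested genes and 0 below percentile 25. With first-order decay, 60 min of labelling would renew 3.13% of an mRNA with the members' median mock half-life, and 5.21% of one at the all-gene median. Recomputed from the 3 RNA fractions, the members' median half-life was 1512 min after MOV10 siRNA and 1626 min in mock. The recomputed median of all tested genes was 666 min after MOV10 siRNA and 715 min in mock. Which condition had the longer half-lives in minutes thus depended on how they were computed. These are descriptions of a set of genes in the same columns, and no test was run over them.

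The complexes had different median half-lives. After MOV10 siRNA the medians were 1283 min for complex I, 1103 min for complex II, 2517 min for complex III, 1891 min for complex IV and 1867 min for complex V. In mock they were 1148 min for complex I, 910 min for complex II, 2027 min for complex III, 1384 min for complex IV and 1622 min for complex V. In each of the 4 columns, complex II had the lowest median, followed by complex I, and complex III had the highest. Within every complex with 5 or more members the half-lives spread over more than the gap between complexes, so the medians describe overlapping groups. The order also depends on how the half-life is computed. Recomputed from the 3 RNA fractions without any term for sequence, the mock medians were 933 min for complex II, 1497 min for complex I, 1593 min for complex III, 1841 min for complex V and 1945 min for complex IV.

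**Figure D1:**
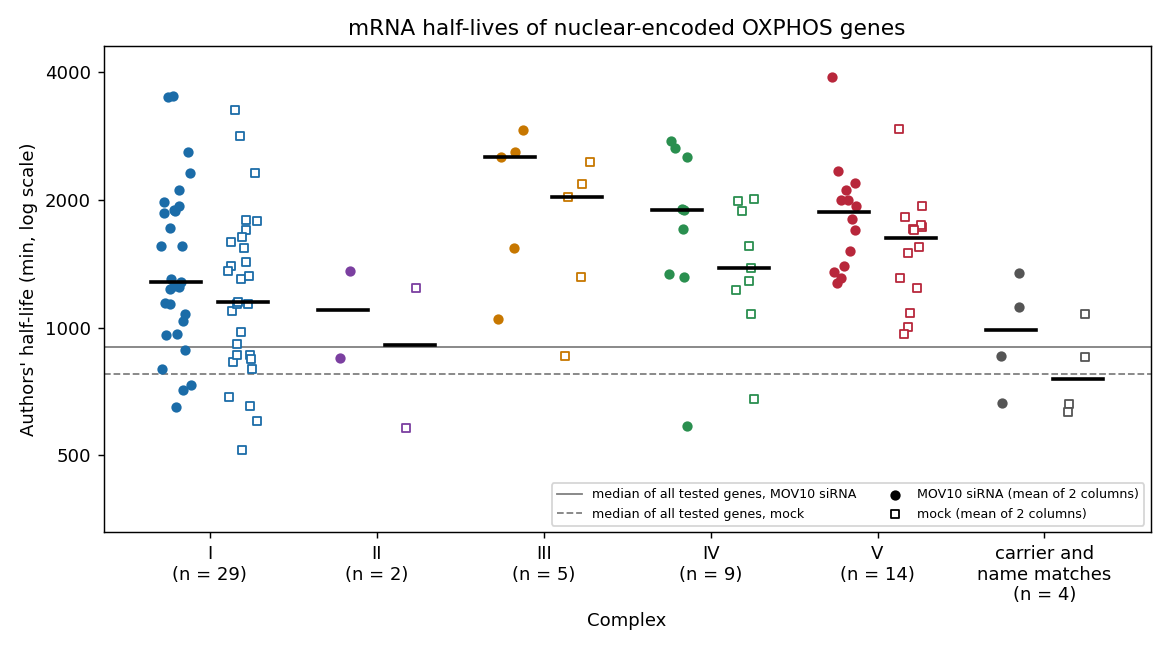
Authors' half-lives in minutes (log scale) of the 63 members by complex. Filled circles are MOV10 siRNA and open squares are mock, each the mean of 2 columns, black bars are medians over members, and the horizontal lines are the medians of all tested genes, at 900 min after MOV10 siRNA (solid) and 777 min in mock (dashed). Complex V lies wholly above the lines, with its lowest member at 1272 min after MOV10 siRNA and 968 min in mock.

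Complex I held the longest and the shortest mean half-life of the members in mock. NDUFA10, an accessory subunit of the membrane arm, had half-lives of 3039 and 3954 min after MOV10 siRNA, against 3306 and 3207 min in mock. NDUFB1, a small membrane-arm subunit, had 2979 and 4043 min after MOV10 siRNA, against 2608 and 3044 min in mock. At the other end, NDUFA6, an accessory subunit, had 564 and 734 min after MOV10 siRNA, against 513 and 517 min in mock. NDUFS3, a core subunit of the arm that reaches into the matrix, was nearly as short-lived, with 647 and 821 min after MOV10 siRNA, against 548 and 655 min in mock. Before centring, the MOV10 siRNA and mock values overlapped between columns in NDUFA10, NDUFB1 and NDUFS3 and not in NDUFA6. After centring they overlapped in NDUFA10 and NDUFS3 and not in NDUFB1 and NDUFA6. None of these 4 genes passed the test of half-life relative to the median gene.

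The 2 measured subunits of complex II differed from each other by more than their columns did. SDHA, the flavoprotein that oxidises succinate, had half-lives of 1175 and 1536 min after MOV10 siRNA, against 1190 and 1290 min in mock. SDHD, a membrane anchor, had 711 and 987 min after MOV10 siRNA, against 544 and 615 min in mock. In every column SDHA outlasted SDHD.

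In complex III the core protein UQCRC2 had half-lives of 2563 and 3274 min after MOV10 siRNA, against 2291 and 2606 min in mock, and UQCRB had 2282 and 2900 min after MOV10 siRNA, against 1923 and 2419 min in mock. Cytochrome c1, encoded by CYC1 and the subunit that hands electrons on to cytochrome c, was the shortest-lived of the 5, with 857 and 1234 min after MOV10 siRNA, against 825 and 891 min in mock. UQCRQ followed, with 1202 and 1876 min after MOV10 siRNA, against 1231 and 1406 min in mock. No half-life of complex III changed, and the 5 changes lay between -0.00 (UQCRQ) and 0.11 (UQCRH, the hinge protein).

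In complex IV the longest-lived mRNAs in mock were COX6C, with 2303 and 2735 min after MOV10 siRNA, against 1913 and 2101 min in mock, and COX4I1, with 2444 and 3064 min after MOV10 siRNA, against 1861 and 2116 min in mock. COX8A stood apart at the short end, with 483 and 691 min after MOV10 siRNA, against 693 and 664 min in mock. The next lowest, COX6A1, had 1087 and 1546 min after MOV10 siRNA, against 1028 and 1125 min in mock. COX8A was thus the only one of the 9 complex IV members below the all-gene median in each condition.

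All 14 members of complex V lay above the all-gene median in both conditions. ATP5C1, the gamma subunit of the rotating central stalk, had half-lives of 3523 and 4261 min after MOV10 siRNA, against 3131 and 2725 min in mock. ATP5I, a membrane subunit, was next in mock, with 1886 and 2500 min after MOV10 siRNA, against 1706 and 2165 min in mock. The shortest were ATP5J, of the peripheral stalk, with 1041 and 1502 min after MOV10 siRNA, against 896 and 1040 min in mock, and ATP5E, the epsilon subunit, with 1120 and 1495 min after MOV10 siRNA, against 928 and 1079 min in mock. ATP5G1 and ATP5G2 encode the same mature c subunit with different import signals. Another gene of the c subunit, ATP5G3, was not among the rows analysed here. ATP5G1 had half-lives of 1220 and 1477 min after MOV10 siRNA, against 1174 and 1442 min in mock, and ATP5G2 had 1252 and 1772 min after MOV10 siRNA, against 1151 and 1323 min in mock, so that this pair did not differ beyond the spread of their columns.

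The half-life of 1 member changed after MOV10 siRNA. NDUFB10, an accessory subunit of the membrane arm of complex I, had half-lives of 821 and 1115 min (968 ± 208 min, SD, n = 2 columns) after MOV10 siRNA, against 1426 and 1649 min (1538 ± 157 min, SD, n = 2 columns) in mock. Neither MOV10 siRNA value reached the lower mock value. The change was -0.88 (SE 0.09, limma, Benjamini-Hochberg adjusted p = 0.0065). Half-life was called in 6.15% of all tested genes (1.88% rising, 4.27% falling), and in 1.59% of the members, with 11 members at an unadjusted p under 0.05. The members' median change was 0.07, with a range from -0.88 to 0.39, where the all-gene median is 0 by construction. Leaving out each column in turn kept the call for NDUFB10, with changes between -0.92 and -0.83. Without centring its half-life changed by -0.68 (limma, Benjamini-Hochberg adjusted p = 0.85), the spread between the MOV10 siRNA columns then entering in full, and 0 members were called where 0.115% of all genes were.

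The half-life changes that came next did not pass the test. COX8A changed by -0.43 (limma, Benjamini-Hochberg adjusted p = 0.058) and NDUFA13 by -0.42 (adjusted p = 0.081). NDUFA13, an accessory subunit also known as GRIM-19, had half-lives of 978 and 1516 min after MOV10 siRNA, against 1446 and 1400 min in mock. The half-lives of both COX8A and NDUFA13 overlap between conditions before centring and do not after it. On the other side NDUFB6 changed by 0.39 (adjusted p = 0.093) and SDHD by 0.34 (adjusted p = 0.069). NDUFB6, a membrane-arm subunit, had half-lives of 1582 and 1842 min after MOV10 siRNA, against 1145 and 1127 min in mock. By complex, the median half-life changes were -0.00 for complex I, 0.13 for complex II, 0.06 for complex III, 0.13 for complex IV and 0.11 for complex V. In complex V the changes ran from -0.23 (ATP5D) to 0.21 (ATP5C1), and 10 of the 14 lay above the median gene.

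Total RNA changed in 13 members, and 12 of these fell. That is 20.6% of the members, where 27.2% of all tested genes were called, 12.9% rising and 14.3% falling. By direction, 19% of the members fell and 1.59% rose. NDUFB10 was lowered the most, to 66.0 and 67.1 (66.5 ± 0.823, SD, n = 2 columns) after MOV10 siRNA, against 140 and 153 (147 ± 9.07, SD, n = 2 columns) in mock, a 2.20-fold lower level. The change, -1.11, had an SE of 0.06 and a Benjamini-Hochberg adjusted p of 7.7e-08 by limma. The columns of the 2 conditions were far apart, and the gap was many times the spread within either condition. NDUFB10 lies at chr16:1959508-1961975 on the plus strand (GRCh38, GENCODE v29), where no other annotated gene overlaps it, and 2 pseudogenes bear its name. In these bulk libraries, less RNA per cell and fewer cells expressing it cannot be told apart.

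NDUFA13 total RNA was 73.2 and 73.2 after MOV10 siRNA, against 118 and 123 in mock (change -0.69, SE 0.06, limma, Benjamini-Hochberg adjusted p = 3.9e-06). COX8A total RNA was 169 and 173 after MOV10 siRNA, against 243 and 286 in mock (change -0.60, SE 0.06, adjusted p = 1.9e-05). ATP5G1 total RNA was 91.6 and 88.0 after MOV10 siRNA, against 123 and 146 in mock (change -0.56, SE 0.07, adjusted p = 6.1e-05). In all 3 the conditions did not overlap. For the c subunit the pair of genes parted here, since ATP5G2 had total RNA of 448 and 415 after MOV10 siRNA, against 389 and 464 in mock, which overlap (change 0.04, adjusted p = 0.69). The difference between ATP5G1 and ATP5G2 was itself not tested, and ATP5G1 has 7 named pseudogenes whose reads were not separated. NDUFA13 overlaps YJEFN3 on the same strand, and reads from overlapping genes were not separated either.

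Smaller falls were called in NDUFA9 (-0.42), an accessory subunit of the matrix arm, in COX6B1 (-0.39), which faces the intermembrane space, in NDUFB3 (-0.37) and in ATP5J2 (-0.35), which shares its locus with PTCD1 and a read-through transcript. These 4, with NDUFB10, NDUFA13, COX8A and ATP5G1, were called under each of 12 other settings. The falls of NDUFA7 (-0.28), NDUFB7 (-0.23), NDUFS8 (-0.22) and ATP5I (-0.19) and the single rise, of NDUFA5, were not. NDUFA5 had 71.2 and 67.3 after MOV10 siRNA, against 61.7 and 57.2 in mock (change 0.24, SE 0.07, limma, Benjamini-Hochberg adjusted p = 0.029). NDUFA5 was no longer called without MOV10 siRNA replicate 1 (0.21, adjusted p = 0.24), without MOV10 siRNA replicate 2 (0.27, adjusted p = 0.092) and without mock replicate 2 (0.14, adjusted p = 0.14). NDUFA7 was not called without MOV10 siRNA replicate 2 (-0.25, adjusted p = 0.11) or without mock replicate 2 (-0.14, 0.13). NDUFB7 was not called without MOV10 siRNA replicate 1 (-0.17, 0.34), without MOV10 siRNA replicate 2 (-0.28, 0.056) or without mock replicate 2 (-0.21, 0.068). NDUFS8 was not called without MOV10 siRNA replicate 1 (-0.28, 0.073), without MOV10 siRNA replicate 2 (-0.17, 0.34) or without mock replicate 2 (-0.17, 0.12). ATP5I was not called without MOV10 siRNA replicate 1 (-0.19, 0.24) or without MOV10 siRNA replicate 2 (-0.18, 0.23).

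**Figure D2:**
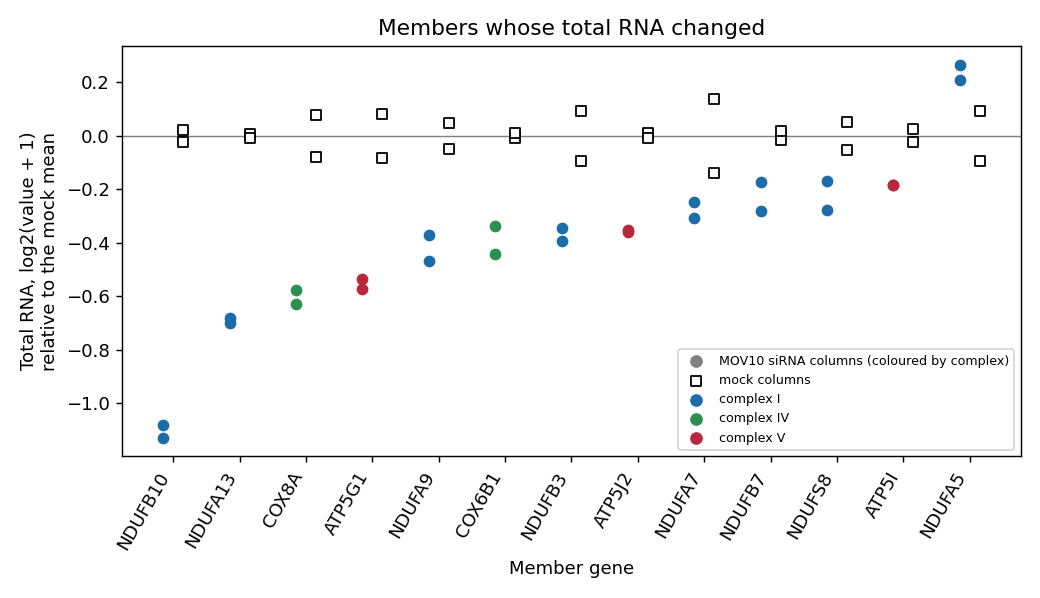
Total RNA of the 13 members whose total RNA changed, as log2(value + 1) centred on the median gene of each column and set against the mean of the mock columns. Filled circles are the 2 MOV10 siRNA columns, coloured by complex, and open squares are the 2 mock columns. NDUFB10, at -1.11, lies furthest from its mock columns, and NDUFA5, at 0.24, is the only one above.

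The falls in total RNA came from complexes I, IV and V, in 24.1%, 22.2% and 21.4% of their members, where 14.3% of all tested genes fell. In complex I, 7 of 29 members fell and 1 rose, with 1 fall among the 6 core subunits (NDUFS8) and 6 falls among the 23 accessory subunits. In complex IV 2 of 9 members fell, COX8A and COX6B1, and in complex V 3 of 14 fell, ATP5G1, ATP5I and ATP5J2. None of the 5 members of complex III or the 2 of complex II was called in total RNA by limma, with 1 of the 7, UQCRQ (-0.12), at an unadjusted p under 0.05. The total RNA changes of the catalytic and central-stalk subunits of ATP synthase, 5 in all, ran from -0.05 in ATP5B, the beta subunit, to 0.04 in ATP5D, the delta subunit. Differences between complexes in these counts were not tested.

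An earlier search of these data had singled out the 7-base sequence TACTGCA in 3′ UTRs, and its places in the members are given here as a description that supports nothing by itself. It lies in the 3′ UTR of 7 of the 63 members (11.1%), against 9.92% of the 6011 tested genes with an annotated transcript. It lies in the coding sequence of 1.59% of the members, against 11% of those 6011 genes, and in the 5′ UTR of 1.59%, against 0.516%. Anywhere in the annotated mRNA 9 members hold it, and 6 of the 9 were not called in total RNA, among them 5 of the 7 with it in the 3′ UTR. Of all tested genes 27.2% were called in total RNA, and the share called among those that hold the sequence is not given here. Windows of the coding strand, 5′ to 3′, are shown for the 3 members with a fall in total RNA that hold it and for a pair of members that hold it and were not called in total RNA. TACTGCA is in capitals, and the positions are those of the 7 bases in GRCh38 with the GENCODE v29 transcripts.
COX8A: ctggtcatgtTACTGCAtttgtggccg
ATP5G1: ggcctgttgcTACTGCAactccacacc
NDUFA9: gttctgccatTACTGCAatagccacat
ATP5A1: tgctcattctTACTGCAttaaattttt
ATP5E: agtaaatattTACTGCAttgagggtcg
In COX8A the sequence is at chr11:63976384-63976390 on the plus strand, in exon 2, and starts 64 bases after the stop codon in a 3′ UTR of 223 bases. In ATP5G1 it is at chr17:48895800-48895806 on the plus strand, in exon 5, and starts 31 bases after the stop codon in a 3′ UTR of 102 bases. In NDUFA9 it is in the coding sequence, at chr12:4654302-4654308 on the plus strand in exon 2. In ATP5A1 it is at chr18:46083083-46083089 on the minus strand in exon 12, and starts 1193 bases after the stop codon in a 3′ UTR of 4034 bases. In ATP5E it is at chr20:59026066-59026072 on the minus strand in exon 3, and starts 2773 bases after the stop codon in a 3′ UTR of 3378 bases. The transcripts were picked for long 3′ UTRs, and whether these cells express the long forms of ATP5A1 and ATP5E was not tested. Total RNA of ATP5A1 changed by -0.01 (limma, Benjamini-Hochberg adjusted p = 0.93) and that of ATP5E by 0.03 (adjusted p = 0.77). NDUFB10 and NDUFA13, which fell the most, have no such letters in their annotated 5′ UTR, coding sequence or 3′ UTR of 69 and 72 bases.

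Labelled RNA, which holds what was made during the 60 min of 4sU, changed in 10 members, or 15.9%, where 21.4% of all tested genes were called (9.88% rising, 11.5% falling). Of the 10, 4 rose and 6 fell. Without centring 7 rose and 2 fell, since the median gene itself stood 0.14 higher. The falls that were called under each of 12 other settings were those of NDUFB6 and SDHD. NDUFB6 labelled RNA was 8.29 and 8.76 after MOV10 siRNA, against 10.8 and 10.6 in mock (change -0.44, SE 0.08, limma, Benjamini-Hochberg adjusted p = 0.0047). SDHD labelled RNA was 33.4 and 35.2 after MOV10 siRNA, against 45.4 and 39.0 in mock (change -0.42, SE 0.08, adjusted p = 0.0048). Both had less labelled RNA in each MOV10 siRNA column than in each mock column, while their total RNA did not pass the test, at -0.03 (adjusted p = 0.80) for NDUFB6 and 0.13 (adjusted p = 0.15) for SDHD.

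COX8A labelled RNA was 110 and 96.1 after MOV10 siRNA, against 121 and 121 in mock (change -0.37, SE 0.09, limma, Benjamini-Hochberg adjusted p = 0.017), and without centring the change was -0.23 (adjusted p = 0.12). ATP5D labelled RNA was 8.01 and 7.39 after MOV10 siRNA, against 8.55 and 9.60 in mock (change -0.35, adjusted p = 0.029). COX4I1 changed by -0.33 (adjusted p = 0.011) and ATP5SL by -0.32 (adjusted p = 0.036). The calls of COX8A, ATP5D and ATP5SL were each lost without MOV10 siRNA replicate 2 (adjusted p = 0.064, 0.10 and 0.24), those of COX8A and ATP5D without mock replicate 2 (adjusted p = 0.064 and 0.25), and that of ATP5SL without mock replicate 1 (adjusted p = 0.061). With the trend on the GC content of the coding sequence taken out, the changes of ATP5D (-0.07, adjusted p = 0.57) and COX8A (-0.20, adjusted p = 0.06) were not called either.

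The rises in labelled RNA came 1 each from complexes I, II, III and V, and all 4 lost the call under some settings. ATP5H, of the peripheral stalk, had 26.7 and 29.4 after MOV10 siRNA, against 22 and 18.5 in mock (change 0.32, SE 0.09, limma, Benjamini-Hochberg adjusted p = 0.022). NDUFA8 had 22.3 and 24.9 after MOV10 siRNA, against 19.2 and 15.4 in mock (change 0.30, adjusted p = 0.041). UQCRH had 129 and 127 after MOV10 siRNA, against 107 and 84.2 in mock (change 0.29, adjusted p = 0.048), and SDHA had 16.5 and 17.6 after MOV10 siRNA, against 13.2 and 12.4 in mock (change 0.25, adjusted p = 0.041). In these 4 no MOV10 siRNA column overlapped a mock column. With the trend on GC content taken out the change of UQCRH was 0.25 (adjusted p = 0.053). Without mock replicate 2 none of the 4 calls was kept (adjusted p = 0.15 for ATP5H, 0.29 for NDUFA8, 0.43 for UQCRH and 0.14 for SDHA). Without MOV10 siRNA replicate 2 the adjusted p was 0.094 for ATP5H, 0.16 for NDUFA8 and 0.15 for SDHA, without MOV10 siRNA replicate 1 it was 0.078 for UQCRH and 0.056 for SDHA, and without mock replicate 1 it was 0.12 for SDHA. Over all members, 10 calls became 5 without MOV10 siRNA replicate 2 and 5 without mock replicate 2.

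Labelled RNA of the members with the largest falls in total RNA did not pass the test, COX8A excepted. NDUFB10, lowest in total RNA, had labelled RNA of 36.3 and 35.2 after MOV10 siRNA, against 35.9 and 30.1 in mock (change -0.02, SE 0.08, limma, Benjamini-Hochberg adjusted p = 0.87). NDUFA13 labelled RNA was 22 and 20.2 after MOV10 siRNA, against 22.3 and 21.6 in mock (change -0.19, adjusted p = 0.12), and ATP5G1 was at 29 and 28.9 after MOV10 siRNA, against 33.2 and 28.0 in mock (change -0.21, adjusted p = 0.094). In these 3 the labelled values of the conditions overlapped before centring. After it those of NDUFB10 still did, while those of NDUFA13 and ATP5G1 did not, at an unadjusted p of 0.038 for NDUFA13 and 0.027 for ATP5G1. Whether labelled and total changes differed was tested only through the authors' half-lives, which are computed from the fractions and in which NDUFB10 alone passed.

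**Figure D3:**
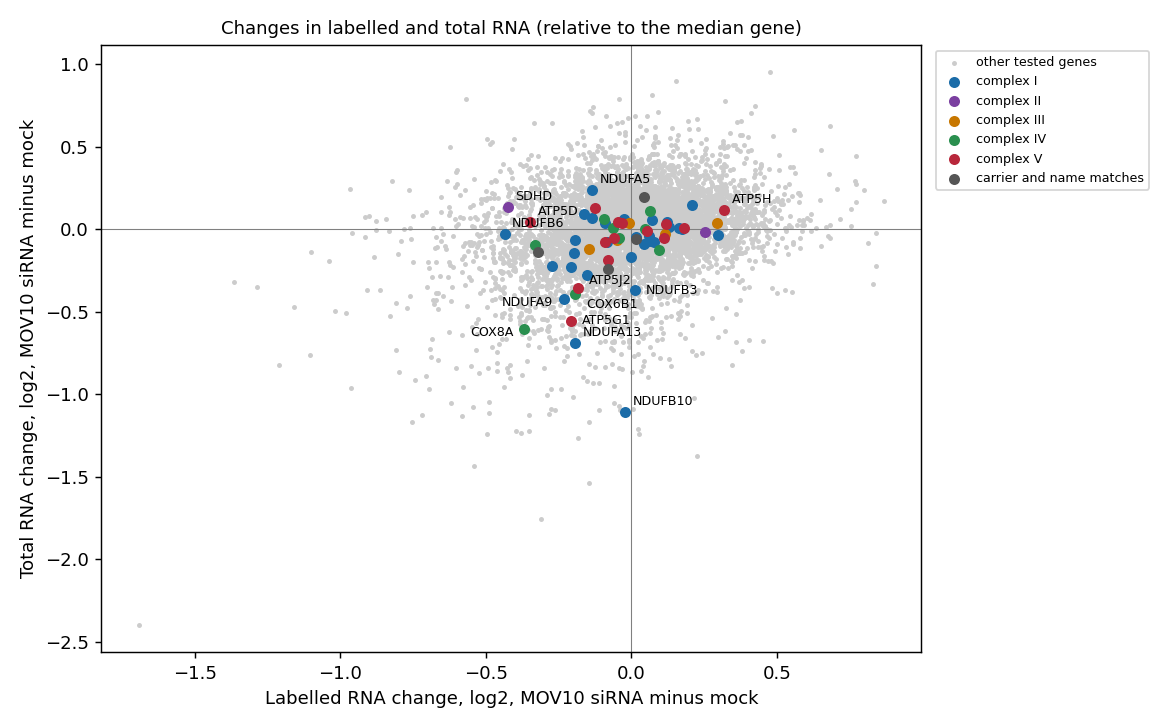
Change in total RNA against change in labelled RNA, both as log2 differences of MOV10 siRNA minus mock relative to the median gene, for the 63 members (coloured by complex) and the other tested genes (grey). NDUFB10 lies at -1.11 in total RNA and -0.02 in labelled RNA, while NDUFB6 and SDHD lie at -0.44 and -0.42 in labelled RNA with total RNA at -0.03 and 0.13.

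Flow-through RNA, the unlabelled fraction, changed in 35 members, or 55.6%, where 58.6% of all tested genes were called (31.7% rising, 26.8% falling). Of the 35, 17 rose and 18 fell, and the members' median change was 0.02. The largest falls were in the genes that fell in total RNA. NDUFB10 flow-through RNA was 131 and 139 after MOV10 siRNA, against 278 and 263 in mock (change -0.98, SE 0.04, limma, Benjamini-Hochberg adjusted p = 8.3e-05). COX8A flow-through RNA was 224 and 226 after MOV10 siRNA, against 435 and 406 in mock (change -0.88, SE 0.04, adjusted p = 8.3e-05). NDUFA13 was at 96.3 and 111 after MOV10 siRNA, against 177 and 162 in mock (change -0.69, adjusted p = 0.00067). The conditions lay well apart in all 3.

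ATP5D, the delta subunit of the central stalk, was the exception, with flow-through RNA of 53.5 and 45.3 after MOV10 siRNA, against 83.3 and 76.0 in mock (change -0.67, SE 0.09, limma, Benjamini-Hochberg adjusted p = 0.0016), while its total RNA was 47.9 and 47.2 after MOV10 siRNA, against 40.4 and 54.0 in mock (change 0.04, adjusted p = 0.76). Its coding sequence has the highest GC content of the members, at 68.0%, and in a fit that takes out the trend of each column with GC content its flow-through change was -0.19 (adjusted p = 0.10).

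Rises in flow-through RNA were smaller. ATP5H had 245 and 253 after MOV10 siRNA, against 182 and 191 in mock (change 0.43, SE 0.04, limma, Benjamini-Hochberg adjusted p = 0.00054). NDUFS4, an accessory subunit of the matrix arm, had 62.2 and 72.1 after MOV10 siRNA, against 51.1 and 50.9 in mock (change 0.40, SE 0.07, adjusted p = 0.0039). ATP5C1 had 347 and 344 after MOV10 siRNA, against 288 and 264 in mock (change 0.34, adjusted p = 0.0013), and UQCRH had 1200 and 1263 after MOV10 siRNA, against 993 and 978 in mock (change 0.34, adjusted p = 0.00043). In each of these 4 the columns of the conditions did not overlap, and total RNA did not pass the test in any of them, with changes from 0.01 to 0.12. UQCRB and UQCRC2 of complex III also rose in flow-through RNA, at 0.11 and 0.12, while UQCRQ fell by 0.20.

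Flow-through changes followed base composition in members and in all genes. Over the 63 members the Spearman correlation between the flow-through change and the GC content of the coding sequence was -0.58, and over 6011 tested genes it was -0.46. It was -0.31 for total RNA in both sets, and for half-life it was -0.43 in the members and -0.35 in all genes. Genes in one set of libraries share those libraries, so these are descriptions. With the trend on GC taken out of each column, flow-through RNA changed in 25 members in place of 35, with 10 rises and 15 falls, against 48.7% of all genes. NDUFB10, COX8A and NDUFA13 fell and ATP5H, NDUFS4, ATP5C1 and UQCRH rose under that setting too, with COX8A at -0.54 in place of -0.88 and ATP5C1 at 0.21 in place of 0.34. In total RNA 13 members were called under that setting as well, with 1 rise and 12 falls, but not the same 13. NDUFA5 (0.15, adjusted p = 0.064), NDUFA7 (-0.20, 0.055), NDUFB7 (-0.13, 0.12) and NDUFS8 (-0.14, 0.10) were no longer called. The members called in their place, the 1 rise among them, are not named here. The count of flow-through calls also dropped to 23 without mock replicate 1 and to 22 without mock replicate 2. The part of base composition in these changes was not tested beyond this fit.

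**Figure D4:**
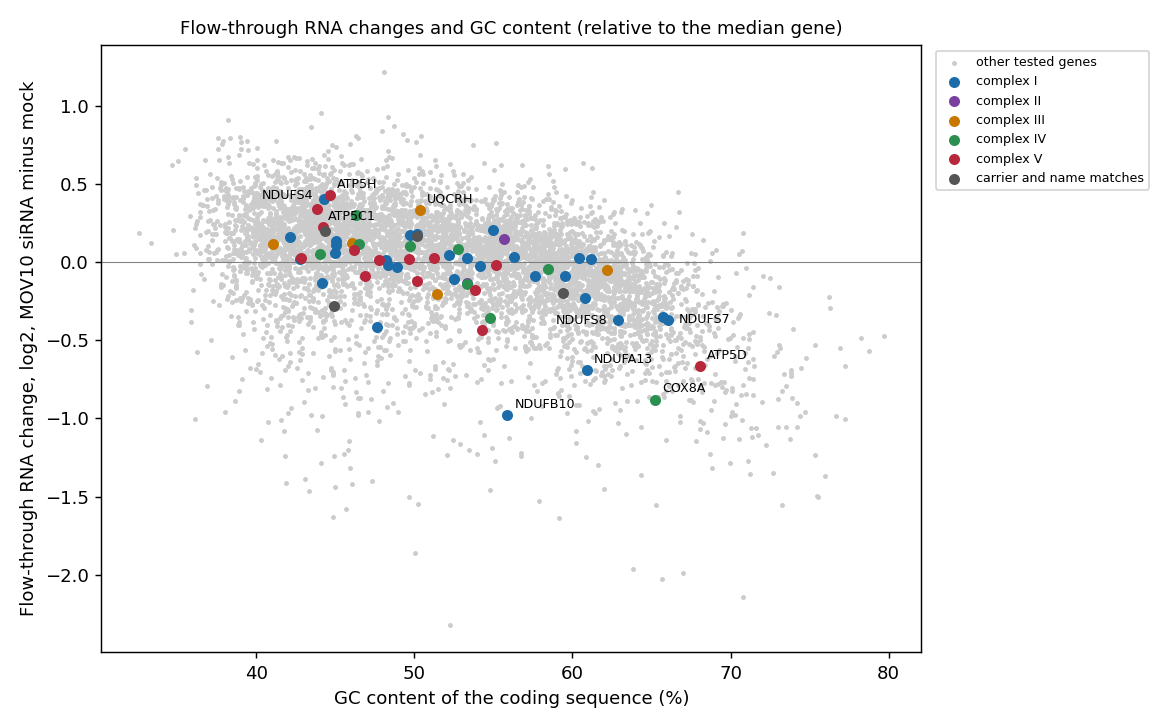
Change in flow-through RNA (log2, MOV10 siRNA minus mock, relative to the median gene) against the GC content of the coding sequence in percent, for the 63 members (coloured by complex) and the other tested genes with an annotated transcript (grey). The cloud slopes down to the right (Spearman -0.58 in the members and -0.46 over all genes), and NDUFB10, at -0.98, lies below the bulk of genes of like GC content.

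Other members changed in flow-through RNA in both directions. In complex I, 14 of 29 members changed in flow-through RNA, 6 up and 8 down. Among its core subunits NDUFS3 and NDUFV2 rose (0.21 and 0.14) and NDUFS7 and NDUFS8, which carry iron-sulfur clusters in the matrix arm, fell (-0.37 each). NDUFS7 flow-through RNA was 99.2 and 106 after MOV10 siRNA, against 140 and 128 in mock, and its half-lives, at 1815 and 3370 min after MOV10 siRNA, against 2467 and 2158 min in mock, overlapped. In complex IV, NDUFA4 rose in flow-through RNA by 0.30 and COX6B1 fell by 0.35. COX6B1 flow-through RNA was 587 and 600 after MOV10 siRNA, against 769 and 767 in mock. All 4 genes outside the complexes were called in flow-through RNA, with CYCS (0.20) and COX7A2L (0.17) up and ATP5S (-0.28) and ATP5SL (-0.20) down, and none of them in total RNA or half-life, though 1 of the 4, COX7A2L (0.20), had an unadjusted p under 0.05 in total RNA.

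The members are short mRNAs. Their median annotated length was 1039 bases, against 2981 bases for all tested genes, with a coding sequence of 414 bases, against 1305, and a 3′ UTR of 223 bases, against 1068. Of the 63, 52 were shorter than the all-gene median. The Spearman correlation of mean mock half-life with mRNA length was -0.03 over 6011 tested genes and -0.10 over the members. For the change in total RNA the correlation with length was 0.24 over all and 0.32 over the members. For the change in half-life it was 0.00 and 0.11, and for that in flow-through RNA 0.15 and 0.28. Shorter mRNAs thus tended towards lower total RNA after MOV10 siRNA, and the part of length in these changes was not tested. The members hold a median of 247 uridines, the base that 4sU replaces, against 727 in all genes. The ratio of the authors' half-life to the one recomputed without a sequence term rose with the number of uridines, with a Spearman correlation of 0.83 in both mock columns over 6011 genes and of 0.75 and 0.74 over the members. NDUFB7, with 75 uridines, had a deposited mock half-life 0.63 times the recomputed one, and UQCRB, with 1771 uridines, had one 1.36 times the recomputed one. The members' median rank among all genes in mock was percentile 79 by the deposited half-lives and percentile 88.1 by the recomputed ones, and 47 members in place of 37 ranked above percentile 75. NDUFB10 had recomputed half-lives of 1133 min after MOV10 siRNA and 2357 min in mock, as means of 2 columns. In the recomputed values NDUFB10 changed by -0.95 (limma, Benjamini-Hochberg adjusted p = 0.0042), and 2 members were called, against 1 in the deposited values.

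**Figure D5:**
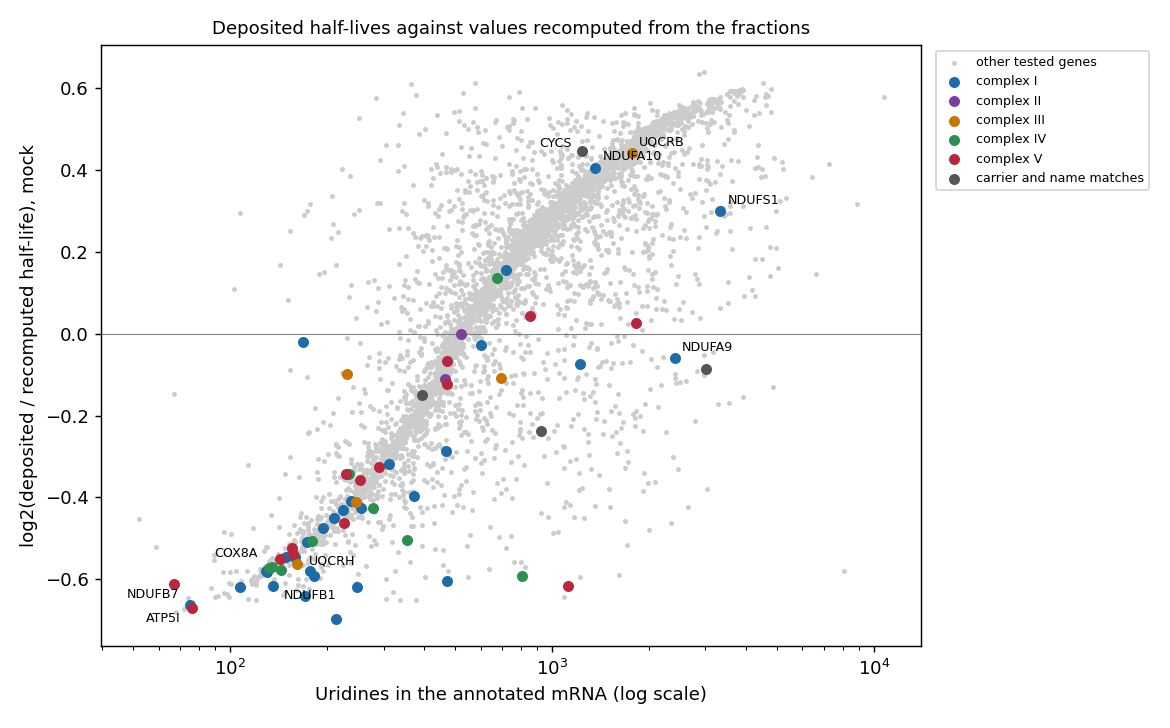
Ratio of the deposited to the recomputed mock half-life (log2) against the number of uridines in the annotated mRNA (log scale), for the 63 members (coloured by complex) and the other tested genes with an annotated transcript (grey). Most members lie at the lower left, with few uridines and deposited values below the recomputed ones, and UQCRB, NDUFA10 and CYCS lie at the upper right.

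Genes that build or feed the chain were counted for comparison, from lists drawn up with earlier results of these data known. Half-life fell in 1 of 27 tested assembly factors of the 5 complexes (3.7%), where it fell in 4.27% of all tested genes. C1orf31, an assembly factor of complex IV, had half-lives of 216 and 272 min after MOV10 siRNA, against 298 and 306 min in mock (change -0.51, limma, Benjamini-Hochberg adjusted p = 0.029), and its total RNA fell as well (-0.75, adjusted p = 1.5e-05). UQCC, an assembly factor of complex III, rose in total RNA (0.37, adjusted p = 0.0054). In the 8 tested genes of the pyruvate dehydrogenase complex and its kinases, which link glycolysis to the tricarboxylic acid cycle, PDHB, the E1 beta subunit, had half-lives of 385 and 435 min after MOV10 siRNA, against 633 and 728 min in mock (change -0.92, adjusted p = 0.0091), and total RNA of 16.3 and 16.4 after MOV10 siRNA, against 36.8 and 35.0 in mock (change -1.07, adjusted p = 6.4e-07). Among 7 carriers and pores for ATP and phosphate, SLC25A4, an ADP/ATP carrier, and VDAC1, the outer membrane pore, fell in half-life (-0.52 and -0.49) and in total RNA (-0.63 and -0.61). SLC25A5 fell in total RNA (-0.41) and was not called in half-life.

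Of 11 iron-sulfur cluster assembly genes, FDX1L and GLRX5 fell in half-life (-0.58 and -0.42, limma, Benjamini-Hochberg adjusted p = 0.019 and 0.05). Both also fell in total RNA (-0.68 and -0.42), as did FDXR (-0.37). Of 13 genes of glycolysis, LDHA, which makes lactate from pyruvate, fell in half-life by 1.22 and in total RNA by 1.24. In total RNA 5 of the 13 (38.5%) were called, where 27.2% of all tested genes were. GPI and TPI1 also fell, while PFKM and PGAM1 rose. LDHA total RNA was 110 and 114 after MOV10 siRNA, against 265 and 275 in mock. By limma no half-life was called in 11 genes of the tricarboxylic acid cycle, 9 of coenzyme Q synthesis or 14 of mitochondrial DNA expression. The same held for 8 regulators of mitochondrial gene expression and 21 genes of mitochondrial protein import. These lists are put together here because none held a call, so this is not a result beside the 6.15% called of all tested genes. Of these 63 genes, 11 had an unadjusted p under 0.05. In the other lists the share called was 12.5% for pyruvate dehydrogenase, 28.6% for the carriers and pores, 18.2% for iron-sulfur cluster assembly and 7.69% for glycolysis. Of the regulators, ESRRA, a nuclear receptor that drives genes of oxidative metabolism, fell in total RNA, to 5.57 and 6.51 after MOV10 siRNA, against 10.3 and 10.9 in mock (change -0.71, adjusted p = 0.00013). TFAM, which packages and transcribes mitochondrial DNA, rose in total RNA (0.22, adjusted p = 0.016). Also called in total RNA in the lists without a half-life call were COQ2 and TOMM20, which rose, and IDH3G, SUCLA2, MTERFD1 and TOMM34, which fell. The genes encoded by mitochondrial DNA were not analysed here.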

How the data were processed

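The deposited table holds, per gene, a normalised expression signal in 12 columns (total, labelled and flow-through RNA of MOV10 siRNA and mock cells, replicates 1 and 2), and 4 half-life columns, the other unit. The authors' processing gave no name to the signal's unit in the header, and the half-lives, computed by the authors after a published method per the labels' protocols, match minutes when recomputed (Pearson correlation of log2 values 0.964 to 0.980 over genes). Reads were aligned with TopHat2 2.06 to hg18, per the submitters' processing notes. Libraries were made with TruSeq v2, per the labels' protocols, and no source used here states that strand was used in counting. All values are 1.00 or more and are not counts, so no depth or counting interval can be given. GEO lists 6 samples, 1 per group, and replicate columns were taken from the header. All value columns were used.

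The tests took genes whose total RNA averaged at least 5 in each condition and were run with limma 3.58.1 in R 4.3.3, on log2(value + 1) or log2 half-life centred on the median gene of each column, with 2 MOV10 siRNA against 2 mock columns and a mean-variance trend. Benjamini-Hochberg adjustment ran over 6064 genes, at a threshold of 0.05. The code was tested on simulated data. Half-lives were recomputed from the 3 fractions, assuming exponential decay during the 60 min of label and weighting the fractions by a fit in each column. Lengths, uridines, GC content and sequences came from GENCODE v29 on GRCh38, a build other than that of the alignment. Genes were matched by symbol through RefSeq synonyms, for 63 members and 6011 tested genes. For each gene a transcript annotated as principal was preferred, and among those the one with the longest 3′ UTR. Promoters came from RefSeq (GRCh38.p14).

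The members and all lists were chosen with earlier results of these data known. Every member could be named. Values per column were to be given for called members (the 4 largest each way where more than 8 were called), for the extremes of half-life and of half-life change in each complex and for the c subunit genes, and in other lists for the extremes of half-life change and called genes. NDUFA9, NDUFS7 and COX6B1 were added after their values were seen. Alternatives were other floors, pseudocounts and centring, no trend, a replicate block, leaving out each column, recomputed half-lives, NDUFA4 in complex I and, chosen after seeing the data, a correction for GC content.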

Additional observations from a re-analysis of the deposited data

How the results depend on the processing

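No member called in half-life, total RNA or labelled RNA changed direction under the alternatives. In flow-through RNA direction was followed only for the largest falls (NDUFB10, COX8A, NDUFA13 and ATP5D) and rises (ATP5H, NDUFS4, ATP5C1 and UQCRH). None of these changed direction, and the other members called in flow-through RNA were not followed. Members called in half-life numbered 3 with a floor of 20 (NDUFB10 and COX8A down, SDHD up), 0 without centring, 2 with recomputed half-lives (NDUFB10 and COX8A down) and 2 with GC correction (NDUFB10 down, SDHD up), against 1. Total RNA calls numbered 8 without centring, against 13. Leaving out 1 column at a time gave 1 half-life call each time, 9 to 16 total RNA calls, 5 to 11 labelled calls and 22 to 28 flow-through calls. Columns of like replicate number deviated with little correlation over all genes (half-life -0.07, total RNA 0.05, labelled RNA -0.04, flow-through RNA 0.11). Over the members the correlations were -0.21, 0.22, -0.25 and 0.14. These values do not show whether like-numbered columns were handled together. With the replicate block 1 member was called in half-life, 16 in total RNA, 11 in labelled RNA and 39 in flow-through RNA. Under it 37.1% of all tested genes were called in total RNA. Median half-life changes with 1 column left out were 0.04 to 0.09 in complex I (-0.00 with all), -0.00 to 0.10 in complex III (0.06), 0.12 to 0.19 in complex IV (0.13) and 0.02 to 0.14 in complex V (0.11). GC correction gave 0.06 in complex I and 0.16 in complex II, no floor gave 0.15 in complex II, and recomputed half-lives gave 0.09 in complex II, 0.01 in complex III, 0.07 in complex IV and 0.04 in complex V. Median total RNA changes with 1 column left out were -0.05 to -0.04 in complex I and -0.05 to -0.01 in complex V, and with GC correction -0.06 in complex I, 0.08 in complex II and -0.05 in complex V. Mock half-life medians with 1 mock column left out were 1145 to 1230 min in complex I and 1444 to 1634 min in complex V. Recomputed, they were 1497 min in complex I, 1593 min in complex III, 1945 min in complex IV and 1841 min in complex V. With NDUFA4 counted in complex I, the median of the authors' mock half-lives there was 1224 min, against 1148 min without it. The cause of these shifts was not tested. With 2 columns a condition, small changes rest on few values, and the lone column left in a condition is then assumed to vary like the others.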

Other observations

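The promoters of 55 members were in the RefSeq promoter table (GRCh38.p14, 250 bases before to 50 after the start), beside 5050 promoters of tested genes, and were searched on both strands for motifs of factors known from genes of the respiratory chain. The YY1 motif AAGATGG was in 23.6% of the members' promoters and 9.21% of all. The SP1 motif GGGCGG was in 54.5% of the members' promoters and 73.0% of all. The ETS motif CCGGAAG, bound by GABP among others, was in 29.1% of the members' promoters and 23.7% of all. The letters TATAAA were in 9.09% of the members' promoters and 4.95% of all. These shares are descriptions with no test, and a match is not a bound site. YY1 itself fell in labelled RNA, with 33.3 and 33.7 after MOV10 siRNA, against 40.9 and 39.3 in mock (change -0.39, limma, Benjamini-Hochberg adjusted p = 0.0054), and its total RNA changed by 0.02 (adjusted p = 0.83).

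Of the 63 members, 39 overlap another annotated gene, 22 of them on the same strand, and 38 have at least 1 pseudogene bearing their name. Reads of such pairs were not separated here.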
